A study of Mus musculus with 2 samples.

Results

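The genes described here are *Myc*, 5 amino acid transporter genes (*Slc7a5*, *Slc3a2*, *Slc1a5*, *Slc38a1* and *Slc38a2*) and 2 genes of polyamine synthesis (*Odc1* and *Srm*). They are 8 of the 32285 genes in the deposited count tables, chosen by name and matched by gene symbol, and each symbol matched. Single-cell RNA was measured in CD8+ tumor-infiltrating lymphocytes (TIL) sorted from transplanted B16 F0 tumors, a mouse melanoma. The hosts were male C57Bl/6J mice aged 16 weeks, and the cells were enriched with CD8 beads and then sorted by flow cytometry. The labels give 1 lean and 1 obese library, and by the study's methods the lean mice ate normal chow (NC) and the obese mice a western diet (WD). The labels name no genetic change or drug in either group, and the number of mice in each library is not given in the sources used here. With 1 library per diet no difference between diets has a replicate check, so no test was made, and every interval below is a 95% interval that covers counting error only.

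The MYC protein is a transcription factor that binds E-box DNA together with MAX and drives ribosome and nutrient genes in activated T cells. Activated CD8+ T cells import amino acids through a small set of carriers. SLC7A5 pairs with the SLC3A2 heavy chain to exchange large neutral amino acids such as leucine, SLC1A5 carries neutral amino acids including glutamine, and SLC38A1 and SLC38A2 are sodium-coupled carriers of small neutral amino acids. ODC1 turns ornithine into putrescine, the first step of polyamine synthesis, and SRM turns putrescine into spermidine, which dividing cells need in quantity.

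All 8 are protein-coding genes in the GENCODE annotation of GRCm38. *Myc* (ENSMUSG00000022346) lies on chromosome 15 from 61985391 to 61990374. On the same chromosome *Slc38a1* (ENSMUSG00000023169) spans 96571418 to 96642913 and its neighbour *Slc38a2* (ENSMUSG00000022462) spans 96687392 to 96699730, both on the minus strand. *Slc7a5* (ENSMUSG00000040010) is on chromosome 8 from 121881150 to 121907694, and *Slc3a2* (ENSMUSG00000010095) on chromosome 19 from 8706882 to 8723369. *Slc1a5* (ENSMUSG00000001918) is on chromosome 7 from 16781340 to 16798274. *Odc1* (ENSMUSG00000011179) is on chromosome 12 from 17544794 to 17551505, and *Srm* (ENSMUSG00000006442) on chromosome 4 from 148591503 to 148594993.

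Promoter windows of 300 bases from RefSeq (GRCm38.p6) matched 3 of the 8 genes, *Slc3a2*, *Slc38a2* and *Odc1*. They are shown as the start-site sequence of 2 carriers that were higher in the WD library and of the first polyamine enzyme. The stretch of each window that lies in no annotated exon is printed 5′ to 3′ on the gene's strand, with the GC box GGGCGG or its reverse complement CCGCCC in capitals. The intervals are chr19:8713880-8713960 (minus strand), chr15:96699731-96699978 (minus strand) and chr12:17544623-17544793 (plus strand). Those of *Slc38a2* and *Odc1* adjoin the annotated start of the gene. That of *Slc3a2* lies inside the gene's annotated span and not at its 5′ end.
Slc3a2: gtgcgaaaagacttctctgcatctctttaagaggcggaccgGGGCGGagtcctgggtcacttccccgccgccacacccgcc
Slc38a2: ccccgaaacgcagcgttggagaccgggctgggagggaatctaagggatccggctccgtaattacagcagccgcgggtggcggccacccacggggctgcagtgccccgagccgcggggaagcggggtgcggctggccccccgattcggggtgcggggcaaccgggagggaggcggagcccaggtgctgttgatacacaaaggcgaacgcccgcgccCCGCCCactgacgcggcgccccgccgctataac
Odc1: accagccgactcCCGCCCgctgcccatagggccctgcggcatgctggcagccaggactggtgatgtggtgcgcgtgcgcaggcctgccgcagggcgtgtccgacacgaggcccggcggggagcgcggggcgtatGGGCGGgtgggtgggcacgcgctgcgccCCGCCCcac
The E-box CACGTG, its own reverse complement, was in 0 of the 3 full windows and in 7.15% of the 32851 windows of the table. GC boxes were in all 3 full windows, 2 in that of *Slc3a2*, 1 in that of *Slc38a2* and 4 in that of *Odc1*, and in 35.7% of the windows of the table. The GC box was searched for after the windows had been read, and a match is a run of letters, not a measured binding site.

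The NC library held 2456 cells within the limits of under 7.5% mitochondrial UMIs and over 500 and under 50000 UMIs, and the WD library 2289. A UMI (unique molecular identifier) marks 1 captured RNA molecule. The cells carried 27815785 UMIs for NC, with a median of 7958 per cell, and 28705830 for WD, with a median of 9103. The level of a gene is its summed UMIs per 1000000 summed UMIs of the same cells (CPM). Of the cells, 99.7% in NC and 99.6% in WD had a UMI of a T cell marker, and 86.9% and 87.99% had one of *Cd8a*. Melanoma markers summed to 19 UMIs (0.683 CPM) and 29 UMIs (1.01 CPM), with *Tyr* at 0 in both. Dendritic markers summed to 26.4 and 76.2 CPM, hemoglobin genes to 0 and 9193 UMIs, the latter in 29 cells, and mitochondrial genes took 2.07% and 2.66% of UMIs. The libraries shared 4 cell barcodes. Counts from the 3′ end do not scale with transcript length, and no level is compared here between genes.

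Cells were placed in gates by marker genes that include none of the 8 genes. A cell was cycling with at least 3 UMIs and at least 10 per 10000 UMIs of 35 S and G2M genes (*Mki67*, *Top2a*, *Mcm5* and others). Otherwise it was effector by the same limits on 6 genes (*Gzmb*, *Prf1* and *Gzmc* to *Gzmf*), and otherwise resting by the same limits on 7 genes (*Tcf7*, *Lef1*, *Ccr7*, *Il7r* and others). NC and WD held 650 and 745 cycling cells, 500 and 204 effector cells, 808 and 748 resting cells, and 498 and 592 ungated cells. Gate sizes depend on these limits and are not compared. Cycling cells were the deepest, with a median of 18295 UMIs in NC and 18855 in WD, against 6886 and 7707 for resting cells. Between 5 and 20 per 10000 of the cycling genes, near that gate's limit, lay 603 NC and 623 WD cells.

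*Myc* was highest in resting cells of both libraries. It stood at 90.5 CPM (82.9 to 98.6) in resting NC cells and at 77.8 CPM (71.0 to 85.1) in resting WD cells. Cycling cells held 32.8 CPM (29.8 to 36.1) in NC and 39.4 CPM (36.2 to 42.7) in WD, and effector cells 34.4 (29.8 to 39.5) and 39.2 (31.7 to 48.0). The cycling and effector intervals overlapped in each library, while the resting interval stood above every other gate. Ungated cells differed between the libraries in their place, second in NC at 60.8 CPM (52.7 to 69.6) and lowest in WD at 38.1 CPM (33.0 to 43.8), where the interval overlapped those of cycling and effector cells.

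*Slc38a2* was also highest in resting cells, and all 4 gates stood apart in each library. Resting cells held 553 CPM (534 to 572) in NC and 677 CPM (657 to 698) in WD. Ungated cells came second with 443 and 543 CPM, effector cells next with 269 and 401 CPM, and cycling cells last with 237 CPM (229 to 246) and 323 CPM (314 to 332). *Slc3a2* varied less between gates, from 125 CPM in cycling to 178 CPM in ungated NC cells and from 191 to 263 CPM in the same gates of WD. *Slc38a1* ran from 85.5 CPM in effector to 119.7 CPM in ungated NC cells and from 118 to 155 CPM in WD. For both, cycling cells were below resting cells, and the resting and ungated intervals of NC overlapped.

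**Figure D1:**
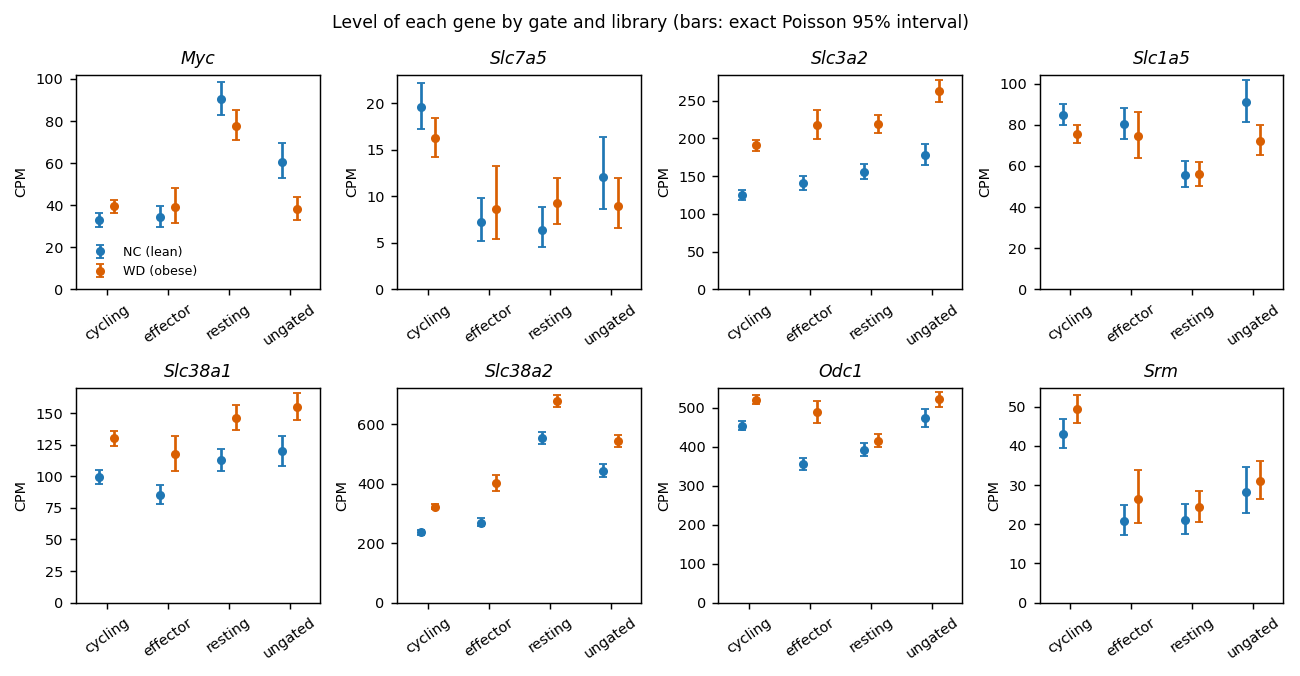
Level of each gene in CPM (vertical axis, from 0) in the 4 gates (horizontal axis), with NC in blue and WD in orange and exact Poisson 95% intervals as bars. *Myc* and *Slc38a2* are highest in resting cells, *Slc7a5* and *Srm* in cycling cells, and the WD points of *Slc3a2*, *Slc38a1* and *Slc38a2* lie above the NC points in every gate.

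The other transporters and *Srm* had another order. *Slc7a5* was highest in cycling cells, at 19.6 CPM (17.3 to 22.2) in NC and 16.3 CPM (14.3 to 18.4) in WD, and lay between 6.43 and 12.1 CPM in the other gates of both libraries, whose intervals overlapped. *Srm* was also highest in cycling cells, at 43.1 CPM (39.6 to 46.8) in NC and 49.3 CPM (45.8 to 53.0) in WD, against 20.7 to 31.1 CPM elsewhere. *Slc1a5* was lowest in resting cells, at 55.8 CPM (49.8 to 62.2) in NC and 55.9 CPM (50.1 to 62.1) in WD, and the other 3 gates of each library overlapped with their neighbours. *Odc1*, the rate-limiting enzyme of polyamine synthesis, ranged between 356 CPM in effector and 473 CPM in ungated NC cells. In WD it ranged between 415 CPM in resting and 521 CPM in ungated cells.

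Cycling over resting, the 8 genes lay on both sides of 0. The log2 ratio was positive in both libraries for 4 genes, 1.61 (1.11 to 2.15) in NC and 0.81 (0.39 to 1.255) in WD for *Slc7a5*, 1.04 (0.75 to 1.33) and 1.02 (0.76 to 1.28) for *Srm*, 0.61 and 0.43 for *Slc1a5*, and 0.21 and 0.33 for *Odc1*. It was negative in both for the other 4, −1.46 (−1.65 to −1.28) and −0.98 (−1.16 to −0.81) for *Myc*, −1.22 (−1.29 to −1.15) and −1.07 (−1.13 to −1.01) for *Slc38a2*, −0.32 and −0.20 for *Slc3a2*, and −0.18 and −0.17 for *Slc38a1*. Thus 4 genes lay on each side, while the median of all genes with at least 10 CPM in 1 of the gates was 0.33 in NC and 0.29 in WD. *Srm* was at least 2-fold higher in both libraries, as were 14.9% of 7169 genes, and *Slc38a2* at least 2-fold lower, as were 5.64%. *Myc* was 2.76-fold lower in NC and 1.98-fold lower in WD.

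The scale mattered for these ratios. Effective library sizes by TMM lowered every ratio by 0.17 in NC and by 0.11 in WD, and a total that left out mitochondrial and ribosomal protein genes lowered them by 0.31 and by 0.26. *Odc1* in NC was at −0.096 on the latter scale, so its direction between cycling and resting cells depended on the scale. *Slc38a1* in NC was at 0.23 (−0.077 to 0.54) with every cell thinned to 2000 UMIs and *Slc3a2* at −0.014 (−0.29 to 0.25). *Myc* and *Slc38a2* stayed below 0 in both libraries under each of the 11 alternatives, between −1.77 and −0.60 for *Myc* and between −1.53 and −0.66 for *Slc38a2*.

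Per cell the ratios were higher, and a cycling cell also held more UMIs in total. A cycling NC cell held 0.651 *Myc* UMIs on average and a resting NC cell 0.645, a log2 ratio of 0.013 (−0.18 to 0.20). In WD the averages were 0.787 and 0.640, a log2 ratio of 0.30 (0.12 to 0.47). *Myc* UMIs per cell were thus close between the gates in NC and higher in cycling cells in WD, while the fraction of UMIs was lower in cycling cells of both. *Slc38a2* averaged 4.70 UMIs per cycling and 3.94 per resting NC cell, and 6.45 and 5.57 in WD. *Odc1* averaged 8.99 against 2.79 in NC and 10.4 against 3.41 in WD, and *Srm* 0.854 against 0.150 and 0.985 against 0.201. All 8 log2 ratios per cell were above 0 in both libraries, with the interval of *Myc* in NC the single one that spanned 0.

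**Figure D2:**
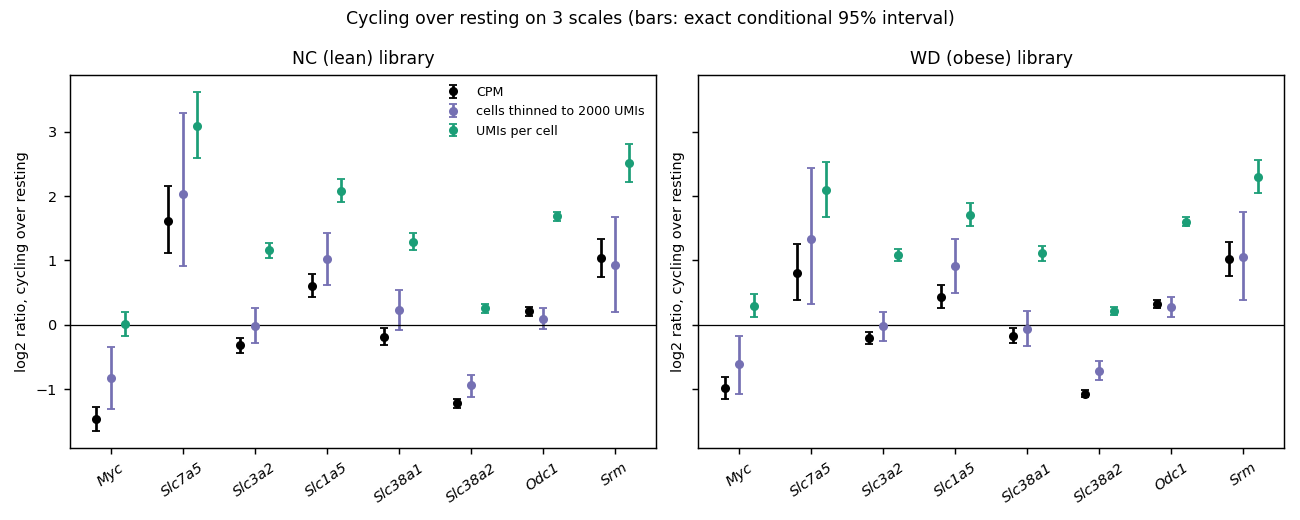
Log2 ratio of cycling over resting cells for each gene in the NC library (left) and the WD library (right), from CPM (black), from cells thinned to 2000 UMIs (purple) and from UMIs per cell (green), with exact conditional 95% intervals as bars. *Myc* and *Slc38a2* lie below 0 on the CPM and thinned scales and at or above it per cell, *Slc7a5*, *Slc1a5* and *Srm* lie above 0 on all scales, and *Slc38a1* in NC changes side between CPM and thinned cells.

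Between diets, 3 transporter genes were higher in the WD library over all cells. *Slc3a2* stood at 141 CPM (137 to 146) in NC and 212 CPM (207 to 218) in WD, which gave a log2 ratio of 0.59 (0.53 to 0.65). *Slc38a1* stood at 102 CPM (98.0 to 106) and 137 CPM (133 to 141), which gave 0.43 (0.36 to 0.50). *Slc38a2* stood at 334 CPM (327 to 341) and 446 CPM (438 to 453), which gave 0.42 (0.38 to 0.45). These 3 of the 8 genes were higher in WD by at least 0.32 on the log2 scale, the threshold used between diets, as were 8.13% of 7064 genes, and 0 of the 8 were lower by as much, as were 4.11%. The median over the 8 genes was 0.25 and that over all genes 0.035.

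The remaining genes differed less. *Srm* stood at 32.1 CPM (30.0 to 34.2) in NC and 38.7 CPM (36.5 to 41.0) in WD, which gave 0.27 (0.14 to 0.40). *Odc1* stood at 423 and 495 CPM, a log2 ratio of 0.23 (0.19 to 0.26). Both polyamine genes were thus higher in WD by less than the threshold on the CPM scale. Over the alternatives *Odc1* ran from 0.16 to 0.29. *Srm* ran from 0.21 to 0.51, past the threshold, with 0.41 (0.027 to 0.80) in thinned cells. *Slc1a5* was lower, at 78.7 CPM (75.4 to 82.1) in NC and 70.6 CPM (67.5 to 73.7) in WD, which gave −0.16 (−0.24 to −0.069). For *Slc7a5*, the partner of *Slc3a2*, 13.4 and 12.8 CPM gave −0.069 (−0.28 to 0.14), and for *Myc* 48.5 and 47.4 CPM gave −0.034 (−0.14 to 0.076), intervals that span 0.

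On the CPM scale *Slc3a2* and *Slc38a1* were past the threshold in WD in each of the 4 gates, as were 1.87% of 6037 genes. The log2 ratio of *Slc3a2* was 0.61 (0.52 to 0.70) in cycling, 0.63 (0.47 to 0.79) in effector, 0.49 (0.37 to 0.61) in resting and 0.56 (0.42 to 0.70) in ungated cells. For *Slc38a1* it lay between 0.37 and 0.46, and for *Slc38a2* it was 0.45 (0.38 to 0.51) in cycling, 0.58 (0.46 to 0.69) in effector and 0.29 in both resting (0.23 to 0.36) and ungated cells (0.20 to 0.38). The interval stood above 0 in each gate for these 3 genes and for *Odc1*, whose ratio was smallest in resting cells at 0.082 (0.00020 to 0.16) and largest in effector cells at 0.46 (0.35 to 0.56). *Srm* was above 0 in each gate, between 0.13 and 0.35, with an interval above 0 only among cycling cells, at 0.19 (0.034 to 0.36). Thinned cycling cells gave 0.30 (−0.30 to 0.90) for *Srm*, an interval that spans 0. Over the alternatives its ratio in ungated cells ran from −0.29 to 0.32. Both sodium-coupled carriers and the *Slc3a2* heavy chain were therefore higher in WD across gates on the CPM scale. In thinned cells *Slc3a2* and *Slc38a2* kept intervals above 0 in each gate. Thinned *Slc38a1* gave 0.16 (−0.14 to 0.46) in cycling and 0.30 (−0.23 to 0.82) in effector cells, intervals that span 0. It gave 0.45 (0.16 to 0.74) in resting and 0.75 (0.38 to 1.12) in ungated cells. For *Odc1* the cycling ratio minus the effector ratio was −0.26 (−0.38 to −0.15). With the effector cells high in *Gzmc* to *Gzmf* left out, the effector ratio of *Odc1* was 0.37 (0.25 to 0.49). Thinned cells gave *Odc1* ratios of 0.20 (0.040 to 0.36) in cycling and 0.44 (0.17 to 0.71) in effector cells. Thinned resting cells gave 0.022 (−0.14 to 0.18) and thinned ungated cells −0.011 (−0.21 to 0.19), intervals that span 0.

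*Slc7a5* and *Slc1a5* were lower in WD among cycling cells, *Slc7a5* with 19.6 and 16.3 CPM, a log2 ratio of −0.27 (−0.53 to −0.013), and *Slc1a5* with 84.9 and 75.4 CPM, a log2 ratio of −0.17 (−0.29 to −0.049). Thinned cycling cells gave −0.17 (−0.96 to 0.62) for *Slc7a5* and −0.15 (−0.50 to 0.21) for *Slc1a5*, so both intervals spanned 0 at equal depth. In cycling cells with more S than G2M gene UMIs *Slc7a5* gave −0.058 (−0.41 to 0.29). The other cycling cells gave −0.54 (−0.94 to −0.14) for *Slc7a5*. *Slc7a5* had 57 UMIs or fewer in each other gate and library, and its ratios there had intervals that span 0. Among effector and resting cells it was under 10 CPM in both libraries, so 7 of the 8 genes passed the filter there. Of the genes that passed, 3 of 8 were higher in WD past the threshold in cycling cells (8.35% of all genes), 5 of 7 in effector cells (19.4%), 2 of 7 in resting cells (14.5%) and 2 of 8 in ungated cells (12.1%). Lower past the threshold were 3 of 8 in ungated cells, *Myc*, *Slc1a5* and *Slc7a5* (10.8% of all genes). In cycling (5.76%), effector (11.2%) and resting cells (5.91%) 0 of the genes were lower past it. *Slc7a5* passed the filter in ungated cells through NC alone, with 12.1 CPM in NC and 8.96 CPM in WD. The interval of its log2 ratio there spans 0 (−1.07 to 0.21), as does that of *Srm* in effector cells (−0.11 to 0.80). These counts, like the shares over all genes, use the filter and the ratio and not the interval.

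**Figure D3:**
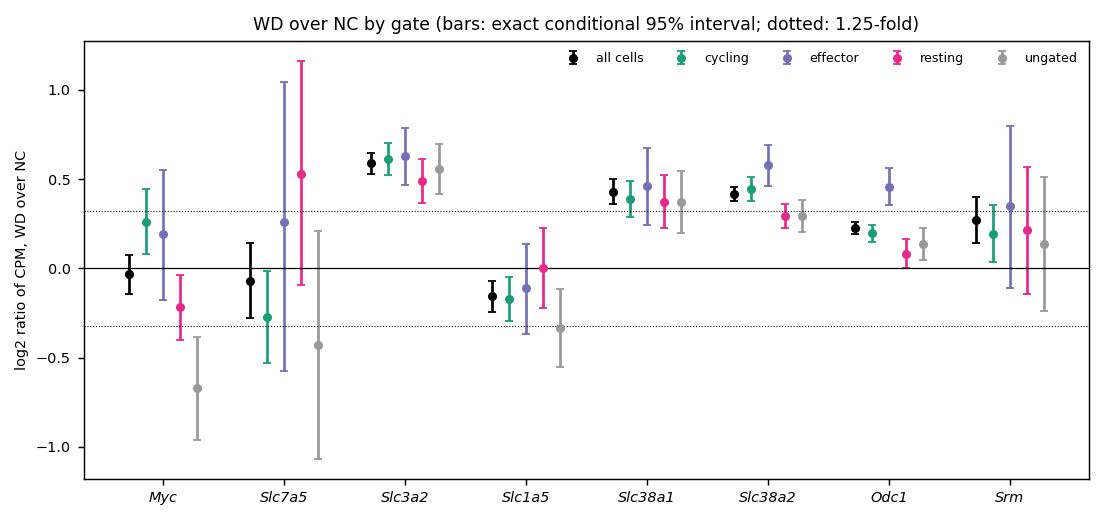
Log2 ratio of CPM, WD over NC (vertical axis), for each gene over all cells (black) and in the cycling, effector, resting and ungated gates (colors), with exact conditional 95% intervals as bars and dotted lines at the threshold of 0.32. *Slc3a2* and *Slc38a1* lie above the upper line in every gate, and *Myc* lies above 0 in cycling and below 0 in resting and ungated cells.

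For *Myc* the diet ratio had opposite signs between gates. In cycling cells it was higher in WD, 32.8 against 39.4 CPM, a log2 ratio of 0.26 (0.079 to 0.45), and in effector cells the ratio was 0.19 (−0.18 to 0.55). In resting cells it was lower in WD, 90.5 against 77.8 CPM, a log2 ratio of −0.22 (−0.40 to −0.037), and in ungated cells 60.8 against 38.1 CPM, a log2 ratio of −0.67 (−0.96 to −0.38). The cycling ratio exceeded the resting ratio by 0.48 (0.23 to 0.73) and the ungated ratio by 0.93 (0.60 to 1.27). Per resting cell, however, *Myc* averaged 0.645 UMIs in NC and 0.640 in WD, a log2 ratio of −0.0099 (−0.19 to 0.17), and thinned resting cells gave −0.049 (−0.43 to 0.33). Thinned cycling cells gave 0.16 (−0.37 to 0.70), from 55 NC and 69 WD UMIs, so both intervals spanned 0 at equal depth. Thinned ungated cells gave −0.92 (−1.59 to −0.26). Dendritic markers summed to 39.1 CPM in resting NC cells and 186 CPM in resting WD cells, and myeloid markers to 51.3 and 14.8 CPM. The part of both lists in the *Myc* values was not tested.

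Shares of cells with a UMI, with each cell thinned to 2000 UMIs, were also higher in WD for the 3 carriers. *Slc3a2* was detected in 26.7% (24.9 to 28.5) of NC and 35.9% (33.9 to 38.0) of WD cells, against 66.8% and 80.1% without thinning. *Slc38a1* was detected in 19.1% and 25.3%, *Slc38a2* in 52.4% and 60.1%, and *Odc1* in 47.8% and 49.6%. *Myc* was detected in 9.79% (8.61 to 11.1) and 9.19% (8.01 to 10.48), *Slc1a5* in 14.2% and 12.7%, *Srm* in 4.08% and 5.60% and *Slc7a5* in 2.15% and 2.57%. Thinning left out 126 NC and 112 WD cells with fewer UMIs. No share was measured in cells that should lack these genes, so the part of free RNA in the shares was not tested.

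Early response and stress genes also differed between the libraries. Of 10 such genes, a list chosen after their values were seen, 9 were past the threshold in WD over all cells with a median log2 ratio of 0.72, among them *Junb* at 0.83 and *Fos* at 0.67, subunits of the AP-1 factor. Over all genes tested 8.13% were past the threshold in that direction, and the median was 0.035. Because the list was chosen with its values known, its count and median are no measure of enrichment over that background. Their sum was 2477 CPM in NC and 3905 CPM in WD. By gate it was 1601 and 2684 CPM in cycling, 1971 and 3436 CPM in effector, 4712 and 6526 CPM in resting and 2875 and 4515 CPM in ungated cells. The list was thus higher in WD in the same gates as *Slc3a2*, *Slc38a1* and *Slc38a2*, and its part in their values was not tested.

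Within the cycling gate *Srm* was concentrated in cells with more S than G2M gene UMIs. In NC it stood at 56.3 CPM (51.2 to 61.8) in 407 S-led cells and 22.4 CPM (18.4 to 26.9) in 243 G2M-led cells, a log2 ratio of 1.33 (1.03 to 1.64). In WD it stood at 63.0 CPM (58.0 to 68.3) in 464 and 26.7 CPM (22.6 to 31.3) in 281 cells, a log2 ratio of 1.24 (0.98 to 1.51). It was the single gene of the 8 at least 2-fold higher in S-led cells in both libraries, as were 18 of 6899 genes (0.261%). The 15 S genes that help define the split were not left out of that share. Nucleolar and growth genes known as MYC targets, listed below, also leaned to S-led cells. Their median log2 ratio was 0.53 in NC and 0.57 in WD, against −0.018 and −0.034 over all genes. The G2M-led level of *Srm* lay near the 21.0 and 24.4 CPM of resting cells. Both kinds of cycling cell had similar depth, with medians of 17621 and 19535 UMIs in NC and 18793 and 19014 in WD.

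*Slc1a5* leaned the same way more weakly, with log2 ratios of S-led over G2M-led cells of 0.36 (0.18 to 0.55) in NC and 0.27 (0.088 to 0.45) in WD. *Slc38a1* gave 0.17 (0.0017 to 0.34) and 0.14 (0.0050 to 0.28). *Odc1* and *Myc* gave ratios between −0.081 and 0.0015 with intervals that span 0. The other 3 genes had ratios apart from 0 in 1 library each, and the difference between libraries was not tested. *Slc7a5* was lower in S-led than in G2M-led NC cells, 16.5 against 24.5 CPM, a log2 ratio of −0.57 (−0.94 to −0.20), and gave −0.092 (−0.47 to 0.30) in WD. *Slc3a2* and *Slc38a2* were lower in S-led than in G2M-led WD cells, with −0.24 for each, and gave 0.11 and −0.0087 in NC, with intervals that span 0. In G2M-led cells *Slc3a2* stood at 119 CPM in NC and 211 CPM in WD, a log2 ratio of 0.82 (0.68 to 0.97), and in S-led cells at 129 and 179 CPM, a log2 ratio of 0.47 (0.36 to 0.59).

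**Figure D4:**
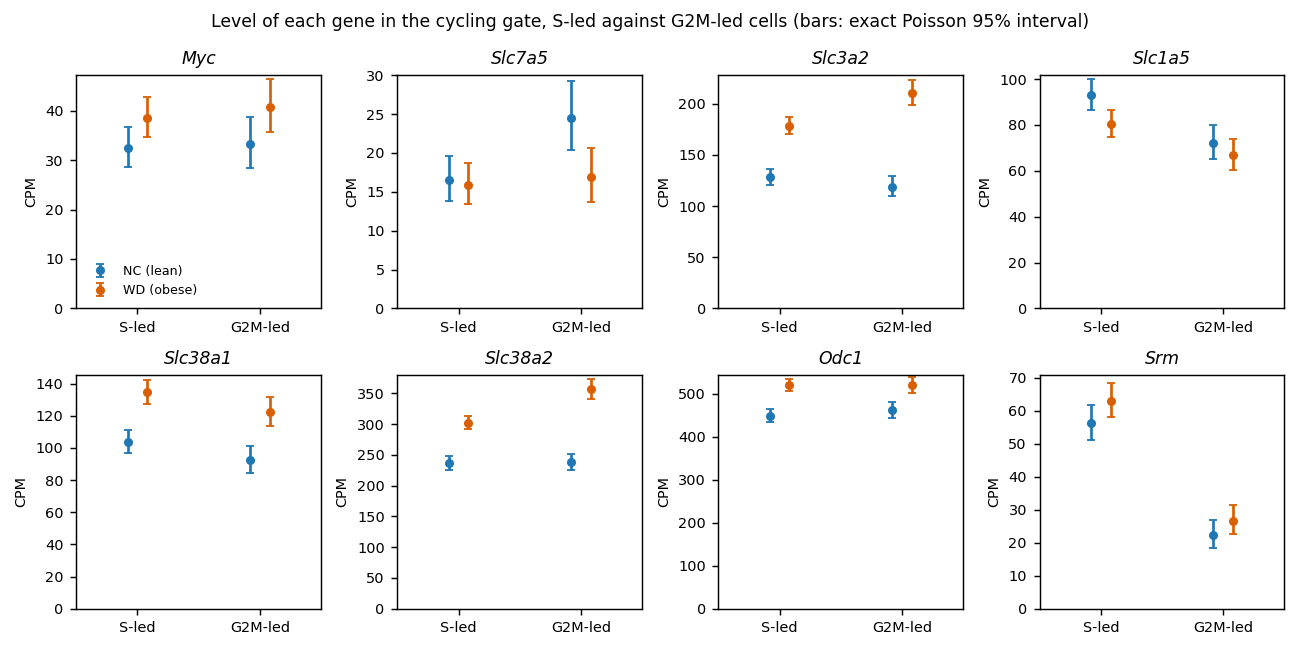
Level of each gene in CPM (vertical axis, from 0) in S-led and G2M-led cells of the cycling gate, with NC in blue and WD in orange and exact Poisson 95% intervals as bars. *Srm* is at 56.3 and 63.0 CPM in S-led against 22.4 and 26.7 CPM in G2M-led cells, and the intervals of *Myc* and *Odc1* overlap between them.

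Within the other gates several genes also varied. Effector over resting, *Myc* gave −1.40 (−1.64 to −1.16) in NC and −0.99 (−1.32 to −0.67) in WD and *Slc38a2* −1.04 and −0.75, while *Slc1a5* gave 0.53 and 0.41. Resting cells with naive markers (*Lef1* and *Ccr7* among them) held less *Slc3a2* than other resting cells, with log2 ratios of −0.36 (−0.56 to −0.16) in NC and −0.39 (−0.55 to −0.22) in WD. *Slc38a1* gave −0.28 and −0.39 and *Odc1* −0.36 and −0.48 there, all with intervals below 0, against medians of −0.12 and −0.13 over all genes. *Myc* gave 0.15 (−0.10 to 0.41) and 0.17 (−0.093 to 0.44), intervals that span 0 and lie above those medians. On the CPM scale no difference of *Myc* from 0 by naive markers was thus detectable at this depth.

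Depth of the cell went with the level of several of these genes inside a gate. Each gate of each library was divided into 3 groups of like size by UMIs per cell, called tertiles here. *Slc38a2* was higher in the shallowest than in the deepest tertile in 8 of 8 gates and libraries with an interval above 0 in each, for example 449 against 197 CPM in cycling NC cells and 660 against 255 CPM in cycling WD cells. *Slc3a2* and *Slc38a1* were also higher in the shallowest tertile in 8 of 8, with an interval above 0 in 7. *Srm* went the other way, lower in the shallowest tertile in 8 of 8 with an interval below 0 in 7. *Myc* was lower in the shallowest tertile in 5 of 8, with an interval below 0 in 3.

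At like depth the gates could be compared for *Srm* and *Myc*. The shallowest tertile of cycling NC cells had a median of 5810 UMIs and the middle tertile of resting NC cells 6887. *Srm* stood there at 13.8 and 18.9 CPM, and at 54.7 CPM in the deepest cycling tertile, whose median was 33314 UMIs. The intervals of these first 2 values overlapped, so *Srm* was not seen to be higher in shallow cycling cells than in resting cells of like depth. *Myc* in the same pair of tertiles stood at 40.8 CPM (31.0 to 52.6) and 80.5 CPM (68.1 to 94.5), and *Slc38a2* at 449 CPM (415 to 485) and 579 CPM (544 to 614). In WD, with medians of 6523 and 7710 UMIs, *Myc* stood at 49.2 CPM (39.0 to 61.1) and 82.7 CPM (70.3 to 96.6), and *Srm* at 24.9 and 23.4 CPM. *Slc38a2* stood there at 660 CPM (621 to 700) and 724 CPM (686 to 763). In WD *Slc38a2* was thus also lower in shallow cycling cells than in resting cells of like depth. These intervals overlapped, which does not decide whether the levels differ, and no interval of their ratio was computed.

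**Figure D5:**
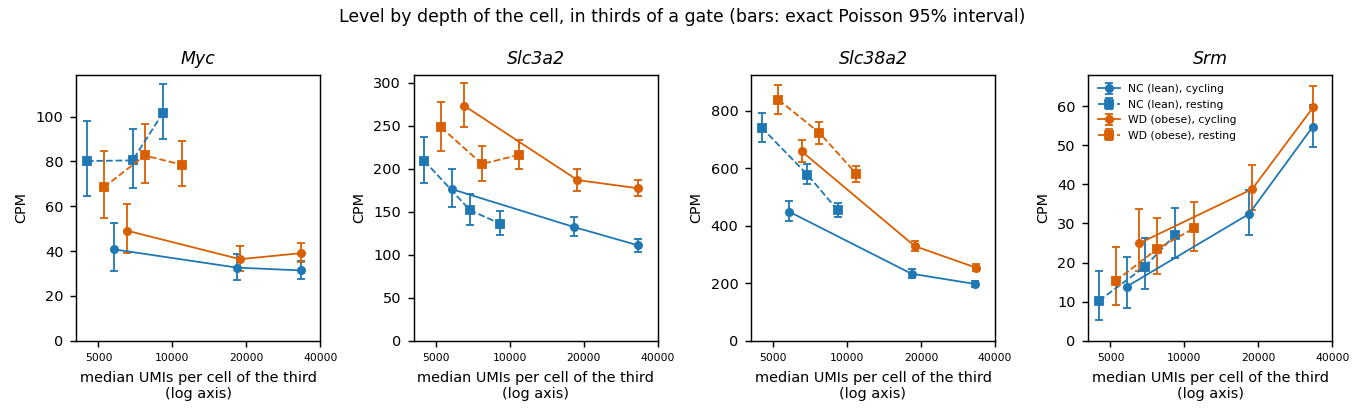
Level in CPM (vertical axis, from 0) of *Myc*, *Slc3a2*, *Slc38a2* and *Srm* against the median UMIs per cell of each depth tertile (horizontal log axis), for cycling cells (circles, solid lines) and resting cells (squares, dashed lines) of NC (blue) and WD (orange), with exact Poisson 95% intervals as bars. *Srm* climbs with depth from 13.8 to 54.7 CPM in cycling NC cells, *Slc38a2* falls from 449 to 197 CPM, and every resting point of *Myc* lies above every cycling point.

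Other genes of the pathways came from lists chosen with results of these data known. Of 18 nucleolar and growth genes known as MYC targets, 17 passed the filter. Over all cells 2 of the 17 were past the threshold in WD, *Nolc1* at 0.38 and *Nop56* at 0.35, against 8.13% of all genes, and the list's median was 0.20, against 0.035 over all genes. Cycling over resting, the median of the nucleolar list was 0.73 in NC and 0.70 in WD, against 0.33 and 0.29 over all genes, and *Hspd1*, a mitochondrial chaperone, reached 1.47 and 1.41. *Ncl*, the nucleolar protein nucleolin, stood at 931 CPM in cycling and 562 CPM in resting NC cells and at 1151 and 630 CPM in WD.

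Of 12 listed genes of the MYC network 10 passed over all cells. Of these 10, 1 was higher in WD past the threshold (8.13% of all genes) and 1 lower past it (4.11%). Among MYC's partners and antagonists, *Max* stood at 46.6 CPM in NC and 48.2 CPM in WD, a log2 ratio of 0.047 (−0.063 to 0.16) whose interval spans 0. *Mxd4* and *Mxd1*, which both encode repressors that pair with MAX, went opposite ways, *Mxd4* from 32.3 CPM in NC to 48.9 CPM in WD, a log2 ratio of 0.60 (0.48 to 0.72), and *Mxd1* from 33.4 to 25.2 CPM, a log2 ratio of −0.41 (−0.55 to −0.27). *Mxd3*, a further member of that family, was found almost only in cycling cells, with 235 UMIs in cycling and 1 in resting NC cells and 300 and 3 in WD. *Mycn* and *Mycl*, the paralogs of *Myc*, had 11 UMIs or fewer in each library.

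Of 19 other genes of polyamine metabolism 10 passed over all cells, with a median ratio between diets of 0.062, against 0.035 over all genes. Of these 10, 1 was higher in WD past the threshold (8.13% of all genes) and 0 were lower past it (4.11%). *Amd1*, whose enzyme decarboxylates S-adenosylmethionine to make the aminopropyl donor, was past the threshold in WD, with 19.95 CPM in NC and 30.3 CPM in WD, a log2 ratio of 0.60 (0.45 to 0.76), although its near-identical copy *Amd2* makes the assignment of its reads uncertain. *Sat1*, the catabolic acetyltransferase, was lower at −0.24 (−0.31 to −0.17), and so was *Oaz1*, the antizyme that directs ODC1 to degradation, at −0.12 (−0.14 to −0.096). Cycling over resting, *Sms*, spermine synthase, stood at 1.13 in NC and 1.14 in WD, and *Eif5a*, the factor that carries the spermidine-derived hypusine, at 0.73 and 0.98. *Amd1* stood at −1.55 (−1.84 to −1.26) and −1.30 (−1.52 to −1.07), lower in cycling cells like *Myc* and *Slc38a2*.

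Of 20 other amino acid transporter genes 2 passed over all cells. *Slc7a1*, a carrier of cationic amino acids such as arginine and ornithine, stood at 22.4 CPM in NC and 32.5 CPM in WD, a log2 ratio of 0.54 (0.39 to 0.69), and *Slc38a10* at 0.079 (−0.085 to 0.24). Of 19 genes of amino acid sensing by mTORC1 11 passed over all cells, with a median of −0.011. Past the threshold between diets were 0 in either direction, against 8.13% of all genes higher and 4.11% lower. In effector cells 2 of 11 were higher and 2 lower past it (19.4% and 11.2% of all genes). In cycling cells 1 of 11 was higher (8.35%), and in ungated cells 2 of 12 were lower (10.8%). *Sesn3*, which encodes a sestrin, was lower in cycling cells at −1.40 and −1.32.

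The genes whose pattern was most like that of each gene were sought over 14 groups, 7 kinds of cell in each library, among 4921 genes by Pearson's r of log2(CPM + 1). The groups share libraries and differ in depth, and the gates were built from some of the genes, so these values are descriptions. All groups had equal weight, although that of WD effector cells high in *Gzmc* to *Gzmf* held 12 cells and 1 *Slc7a5* UMI. The part of that small group in the values was not tested. Among the genes most like *Myc* were *Cmah* and *Ssh2*, each at 0.96. *Slc38a2* was most like *Gpr183*, *Zfp36l2* and *Cd69* at 0.98 to 0.99, and *Slc3a2* like *Fbxo33* (0.98), *Gadd45b* (0.94) and *Sik1* (0.94). *Srm* was most like *Noc2l* (0.96), *Mybbp1a* (0.94) and *Hspa9* (0.94), and *Slc38a1* like *Snhg9* (0.94), *Nr4a3* (0.93) and *Phip* (0.93). *Slc7a5* was most like *Mis18a* (0.94), *Ddx23* (0.89) and *Ncapg2* (0.89), *Slc1a5* like *Mtdh* (0.93), *Txn2* (0.92) and *Rbis* (0.92), and *Odc1* like *Trim35* (0.94), *Tesc* (0.92) and *Phrf1* (0.88). Among the 8 genes the closest pair was *Slc3a2* and *Slc38a1* at 0.93, followed by *Myc* and *Slc38a2* at 0.87, and the most opposed was *Myc* and *Slc1a5* at −0.73.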

How the data were processed

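CD8+ TIL were sorted from B16 F0 tumors of lean and obese mice and captured as 1 library each with a Chromium 3′ kit. The deposited values are UMI counts that the authors did not normalize. The submitters' processing notes name Cell Ranger 6.0.2 and mm10. Cells under 7.5% mitochondrial UMIs and over 500 and under 50000 UMIs were kept, the limits given in the study's methods. The study reports 2697 NC and 2623 WD cells after its quality control, which are the numbers deposited. The same limits applied here kept 2456 and 2289, so the cells used are fewer than the study's. Of the 2697 and 2623 deposited cells of NC and WD, 158 and 213 were over the mitochondrial limit and 83 and 121 over the UMI limit. Doublets were not removed by a caller. A limit of 30000 UMIs was an alternative.

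UMIs were summed per library and gate with Python 3.11.15 (numpy 2.4.6, scipy 1.17.1, pandas 2.3.3), as CPM with exact Poisson intervals. Ratios carry exact conditional binomial intervals, shares Clopper-Pearson intervals, and gaps between gates normal-approximation intervals on the log scale, all of 95% and of counting error only. Molecules, not reads, were counted. All genes with at least 10 CPM in 1 of the 2 groups compared serve as the background, at 0.32 on the log2 scale between diets and 2-fold between gates. For shares each cell was thinned to 2000 UMIs. TMM factors came from edgeR 4.0.16 in R 4.3.3, on summed counts, with no test. The steps were tested on simulated counts.

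The genes, gates and lists were chosen with earlier results of these data known. The genes named are the 8 genes, those of the lists with the highest CPM or past the fold, and the 3 genes most like each of the 8. Some results that this rule would name are not reported here. The early response list, *Mycn* and *Mycl* were named after their values were seen. Alternatives were TMM, a total that left out mitochondrial and ribosomal protein genes, averages of each cell's own CPM, thinning, stricter cell limits, a *Cd8a* or *Cd8b1* UMI without markers of other lineages, all deposited cells, and other gate limits. Equal weight to the 4 gates and removal of the 10 cells per library with the most UMIs of a gene were added after the data were seen. Values of CPM from 3′ counts cannot be compared between genes.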

Additional observations from a re-analysis of the deposited data

Results flagged for a closer look

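*Myc* lay on opposite sides of 0 in different gates when WD was compared with NC. The log2 ratio was 0.26 in cycling cells, −0.22 in resting cells and −0.67 in ungated cells, each with a counting interval on its own side of 0. With 1 library per diet the difference between gates was not tested. The gap between cycling and resting cells was 0.48 (95% interval 0.23 to 0.73, counting error only). Per cell the ratio was 0.27 (0.091 to 0.46) in cycling, −0.0099 (−0.19 to 0.17) in resting and −0.29 (−0.58 to −0.0043) in ungated cells. Over the alternatives the CPM ratio ran from 0.16 to 0.31 in cycling, from −0.44 to −0.049 in resting and from −0.92 to −0.41 in ungated cells. No other of the 8 genes had intervals above 0 in 1 gate and below 0 in another. The gap between cycling and resting cells also lay apart from 0 for *Slc7a5*, *Slc38a2* and *Odc1*. It was −0.80 (−1.45 to −0.15) for *Slc7a5*, from 37 NC and 57 WD UMIs in resting cells. For *Slc38a2* it was 0.15 (0.059 to 0.25) and for *Odc1* 0.11 (0.019 to 0.21).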

How the results depend on the processing

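A median over the 8 genes has no counting interval of its own, so the interval bounds of its middle genes were averaged as a range. Under the alternatives 54 values of the medians lay inside that range and 8 outside it. Over all cells the WD over NC median of 0.25 was 0.33 with all deposited cells. The cycling over resting median was 0.015 in NC and 0.079 in WD. In NC it was −0.16 with TMM, −0.29 without mitochondrial and ribosomal protein genes and 0.17 with thinned cells. In WD it was −0.029 with TMM, −0.18 without those genes, 0.18 as a mean over cells and −0.020 with every cell neither cycling nor effector taken as resting. For single genes 481 values moved within the gene's counting interval, 98 moved beyond it, and 5 crossed 0 from an interval that had not spanned it. These 5 were *Odc1* in ungated cells between diets (−0.011, thinned), *Odc1* in NC between cycling and resting cells (−0.096, without mitochondrial and ribosomal protein genes), *Slc38a1* there in NC (0.061 as a mean over cells, 0.23 thinned) and in WD (0.0010 as a mean over cells). The cause was not tested. The ratio of *Slc3a2* between diets over all cells ran from 0.52 to 0.60, that of *Slc38a1* from 0.38 to 0.45 and that of *Slc38a2* from 0.37 to 0.45. Within gates the ranges were wider, from 0.16 to 0.42 for *Slc38a1* in cycling and from 0.11 to 0.39 for *Slc38a2* in ungated cells. Without the 10 cells per library with the most UMIs of the gene, 8 of 8 ratios over all cells moved within the interval. All 32 shares moved with thinning to 1000 UMIs or none. Counting error limits *Slc7a5* most, with 21 to 57 UMIs in each gate but cycling. No paired analysis was possible because each diet has 1 library.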

Other observations

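Cells outside the limits carried the 8 genes at other levels. The 83 NC and 121 WD cells with 50000 UMIs or more, with medians of 63662 and 71618 UMIs, held 61.9 CPM (55.6 to 68.7) and 94.97 CPM (88.9 to 101) of *Srm*, above the 43.1 and 49.3 CPM of the cycling gate. *Slc7a5* stood there at 26.2 and 26.6 CPM and *Odc1* at 462 and 614 CPM, while *Myc* stood at 38.4 and 39.3 CPM. These barcodes were not examined for doublets. In the 158 NC and 213 WD cells with 7.5% or more mitochondrial UMIs, whose medians were 1515 and 2540 UMIs, *Slc7a5* stood at 80.4 CPM (53.0 to 117) and 43.1 CPM (28.2 to 63.2), above its level in every gate. *Slc1a5* stood there at 199 CPM (155 to 253) and 171 CPM (139 to 207).

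Among Gzmc-to-Gzmf-high effector cells *Odc1* stood at 372 CPM (340 to 407) in 66 NC cells and 723 CPM (632 to 823) in 12 WD cells, a log2 ratio of 0.96 (0.72 to 1.19). In those 12 cells the 10 with the most *Odc1* held 92.5% of its UMIs, and cells, not mice, are counted in these intervals. The other 7 genes had intervals that span 0 there.

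Between single cells thinned to 2000 UMIs, *Slc7a5* was higher in cycling cells that had a *Slc1a5* UMI in both libraries. Cycling NC cells with a *Slc1a5* UMI held 45.0 CPM of *Slc7a5* and those without 18.2 CPM, a log2 ratio of 1.31 (0.040 to 2.48), from 10 and 19 UMIs. In WD the values were 41.0 and 16.1 CPM, a log2 ratio of 1.35 (0.080 to 2.52), again from 10 and 19 UMIs. *Srm* and *Slc38a2* went the other way, with 192 CPM of *Slc38a2* in cycling NC cells that had an *Srm* UMI and 322 CPM in those without, and 259 and 448 CPM in WD. In every gate *Srm* was lower and *Slc38a2* higher in the shallowest than in the deepest tertile. Thinning does not match cells on their original depth, and the part of depth in this pair was not tested. With a *Myc* UMI, 0 of the 28 values for the other 7 genes in the cycling and resting gates had an interval apart from 0. Many pairs were looked at, and no adjustment was made. By detected gene, 0 to 5 of the 28 values had an interval above 0 and 0 to 2 an interval below 0.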
